A study of Homo sapiens with 8 samples.

Results

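The Rab, sorting nexin and VPS genes were examined in RBFOX2 eCLIP data from HEK293T, a cell line of human embryonic kidney. The members are the protein-coding genes named RAB, SNX or VPS followed by a number, taken from RefSeq, and a peak was assigned to a gene when its midpoint lay in the span of that gene and on its strand. The rule gave 128 of 20056 protein-coding genes, made up of 63 Rab, 30 sorting nexin and 35 VPS genes. Together they held 8198 of the 1118316 called peaks of the series.

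The series has 8 samples, as 4 immunoprecipitated (IP) libraries and 4 inputs, all from HEK293T cells for which the labels name no edit, transgene or treatment other than the crosslinking. In eCLIP, ultraviolet light links a protein to the RNA it touches, and the RNA that comes down with the protein is sequenced. The cells were crosslinked with light of 254 nm at a dose of 400 mJ/cm2, and each IP has an input made from 2% of its own material. The deposited values are 4 peak lists, 1 for each IP library against the input of the same number, and nothing in the labels says that the replicates came from separate cultures, so the p-values below measure only the spread between these libraries, which may be technical.

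A called peak is an interval on 1 strand with the authors' log2 fold of IP over input and −log10 p. The lists held between 267691 and 288305 called peaks, most of them without enrichment. A peak was counted as enriched where both values, the log2 fold and the −log10 p, were 3 or higher. Read counts were not used here, so the depth behind each fold is unknown. The lists hold no expression values, so the identity of the cells was not checked against markers.

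Rab proteins are small GTPases that mark the membranes of the cell and recruit the motors, tethers and adaptors that move vesicles between them. Sorting nexins bind phosphoinositides on endosomes through a PX domain, and several bend the membrane or recognise cargo there. VPS proteins, named after yeast mutants in vacuolar protein sorting, build the complexes of the same route: retromer and its relatives retrieve cargo, HOPS and CORVET tether endosomes, and ESCRT sorts ubiquitinated cargo into inner vesicles. RBFOX2 is a splicing regulator that binds RNA at the letters GCATG.

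SNX27 carried a run of adjacent regions in which RNA was higher in the IP than in the input, described below, and the run began close to the start of its transcript. SNX27 binds cargo tails through a PDZ domain and returns them from endosomes to the cell surface with retromer. Its start window is printed to show what lies just before the run. The window covers chr1:151611800-151612099 on the plus strand (RefSeq, GRCh38.p14), with the 50 bases from the transcript start onwards in capitals.
SNX27: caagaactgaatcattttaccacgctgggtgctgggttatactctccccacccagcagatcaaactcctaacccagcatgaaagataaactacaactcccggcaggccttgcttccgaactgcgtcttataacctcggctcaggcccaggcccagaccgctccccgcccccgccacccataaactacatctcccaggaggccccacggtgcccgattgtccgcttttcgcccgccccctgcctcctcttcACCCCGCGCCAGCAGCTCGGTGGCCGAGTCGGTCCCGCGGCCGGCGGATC
The letters GCATG are in the upstream part of this window and not in its transcribed part. The first region of the run starts after a gap of 50 nt. Among 134 start windows listed for 98 member genes, 23 (17.2%) held GCATG on either strand (GCATG or CATGC), against 29.5% of the 35116 windows of all genes. In the transcribed 50 bases, 1 of the 134 member windows (0.746%) held either form, against 1963 of the 35116 (5.59%). GCATG on the strand of the transcript, the form present in its RNA, was there in 0 of the 134 and in 1234 of the 35116. A member's start window overlapped 12 regions called in all 4 libraries, with mean log2 folds between −0.58 and 1.15. Of the 12, 0 passed the test described below. The same share was not taken over the start windows of all genes, and a link between these regions and the letters was not tested. The sequence of the regions themselves was not read here.

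Called peaks were counted first. A called peak was present in 104 of the 128 members, as 43 Rab, 26 sorting nexin and 35 VPS genes, and 98 members had one in each of the 4 libraries. The 128 include 14 without a usable strand, which could not be given peaks. Among other protein-coding genes with a usable strand, 12060 of 17390 had a called peak. The libraries held 1906, 2061, 2161 and 2070 member peaks in replicates 1 to 4, and the median member with any peak had 51.5 over the 4 libraries. Longer genes had more of them, with a Spearman correlation of 0.57 between called peaks and span length over the 104 genes, which share the 4 libraries. No called peak was found in 10 members whose strand is known (RAB6C, RAB6D, RAB7B, RAB17, RAB19, RAB25, RAB27B, RAB32, RAB41 and RAB42). A further 14 had no usable strand and were not assigned peaks. They are RAB15, RAB20, RAB26, RAB33A, RAB33B, RAB36, RAB37, RAB38, RAB39B, RAB44, SNX19, SNX20, SNX31 and SNX32. Among the 368 called peaks that fell in member spans on the other strand or without a usable strand, 0 were enriched. RAB6C and RAB6D are near-identical copies of RAB6A, and how the reads of such copies were placed is not given in the sources used here.

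Few of the member peaks were enriched. Replicates 1 to 4 held 3, 6, 4 and 2 enriched member peaks (mean 3.75 ± 1.71, SD, n = 4), and replicate 2 was the highest. These were 0.183% ± 0.0813 of the called peaks in member genes, against 0.842% ± 0.0447 in other protein-coding genes (SD, n = 4 for both). Over all called peaks of the series, 0.818% were enriched. The member share was lower in 4 of 4 libraries, with differences of −0.728, −0.583, −0.633 and −0.695 percentage points in replicates 1 to 4 (mean −0.660 ± 0.0646, SD, n = 4), and no member value reached any value of the other genes. The exact two-sided sign-flip permutation gave p = 0.125, the smallest that 4 libraries allow, and 0.175 after Benjamini-Hochberg adjustment over 7 such comparisons.

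The lower share was present at milder limits too. Folds above 0.5 on the log2 scale made up 26.3% ± 2.14 of member peaks and 31.7% ± 1.36 of peaks in other genes, and folds above 1.5 made up 9.35% ± 0.899 and 13% ± 0.781 (SD, n = 4). Folds above 2.5 made up 1.38% ± 0.158 and 2.91% ± 0.226. A −log10 p of at least 3, at any fold, was found for 0.302% ± 0.0898 and 1.12% ± 0.0487. Each of these 4 shares was lower in the member genes in 4 of 4 libraries (exact sign-flip permutation, p = 0.125 each, adjusted 0.175). On the side of depletion, folds below −0.5 made up 23.7% ± 1.56 and 23.5% ± 0.506, with 2 of 4 libraries on each side (exact sign-flip permutation, p = 0.75). The median peak length was 48.75 nt in both sets.

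The 3 families overlapped. Rab genes held 0, 3, 0 and 0 enriched peaks in replicates 1 to 4, so all 3 came from replicate 2. Sorting nexin genes held 1 in each library, and VPS genes held 2, 2, 3 and 1. As shares of called peaks these were 0.122% ± 0.244, 0.164% ± 0.00851 and 0.240% ± 0.0898 (SD, n = 4). The difference was −0.0419 ± 0.243 percentage points between Rab and sorting nexin genes, −0.118 ± 0.263 between Rab and VPS genes, and −0.0759 ± 0.0915 between sorting nexin and VPS genes. None of the 3 exceeded its spread between libraries (exact sign-flip permutation, adjusted p = 0.75, 0.5625 and 0.5625).

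**Figure D1:**
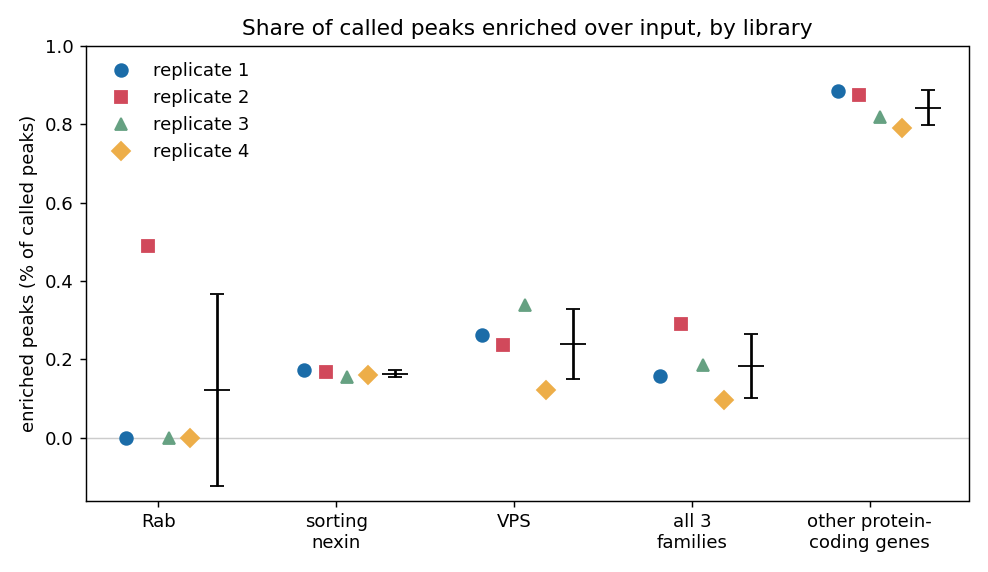
Enriched peaks as a percentage of called peaks (vertical axis) for the Rab, sorting nexin and VPS genes, all 3 families together and the other protein-coding genes. Coloured points are the 4 libraries and black bars the mean ± SD over them. All values of the 3 families lie below 0.5%, and the other genes have a mean of 0.842%. The SD bar of the Rab genes reaches below 0 because replicates 1, 3 and 4 held none.

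The 15 enriched member peaks fell in 7 genes, which left 97 of the 104 members with called peaks without one. Among other protein-coding genes, 1067 of the 12060 with called peaks held an enriched peak. The lower share of enriched peaks in the members is thus a statement on peaks, and the 2 gene counts were not tested against each other. The 15 member peaks merged into 10 regions, and 1 of the 10 was enriched in all 4 libraries, against 16.4% of the 3371 enriched regions of the series. One more was enriched in 3 libraries, and the other 8 in a single library. The threshold cut close to several of them. Inside it, the weakest peaks had a log2 fold of 3.06 (VPS28, replicate 3) and a −log10 p of 3.01 (VPS53, replicate 4). Just outside it lay 11 peaks in 4 genes, such as VPS28 in replicate 4 at a log2 fold of 2.87 with a −log10 p of 3.81 and VPS53 in replicate 1 at 3.70 with 2.74.

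To measure each place in all libraries, called peaks of the 4 lists were merged by overlap on the same strand. A region with a called peak in every list was given in each library the fold of whichever of its peaks had the highest −log10 p, and among peaks with the same −log10 p the one with the highest fold. limma tested the mean over the 4 libraries against 0 for 49493 regions of the whole series, with Benjamini-Hochberg adjustment over all of them and a threshold of 0.05. A region that passed is called above or below 0. Of all regions, 21.1% were above 0 and 1.81% below. The counts of each gene group below are to be read beside these 2 shares, and no group was tested against them. In the member genes 310 regions in 71 genes were tested, of which 51 (16.5%) in 23 genes were above 0 and 10 (3.23%) in 6 genes below. The median mean log2 fold was 0.25 in the member regions and 0.50 over all regions. A mean of at least 2 was found for 21 member regions (6.77%) and for 11.3% of all regions. These counts needed all 4 libraries: without replicate 1 or without replicate 4, 0 member regions passed above 0 and 0 of the whole series did, with 67 and 82 member regions above 0 at an unadjusted limma p under 0.05. Without replicate 2, 8 of 419 member regions (1.91%) were above 0, against 2.04% of all regions. Without replicate 3, 7 of 402 (1.74%) were, against 3.93%. More regions were tested in these runs, since a called peak in the remaining lists was enough.

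**Figure D2:**
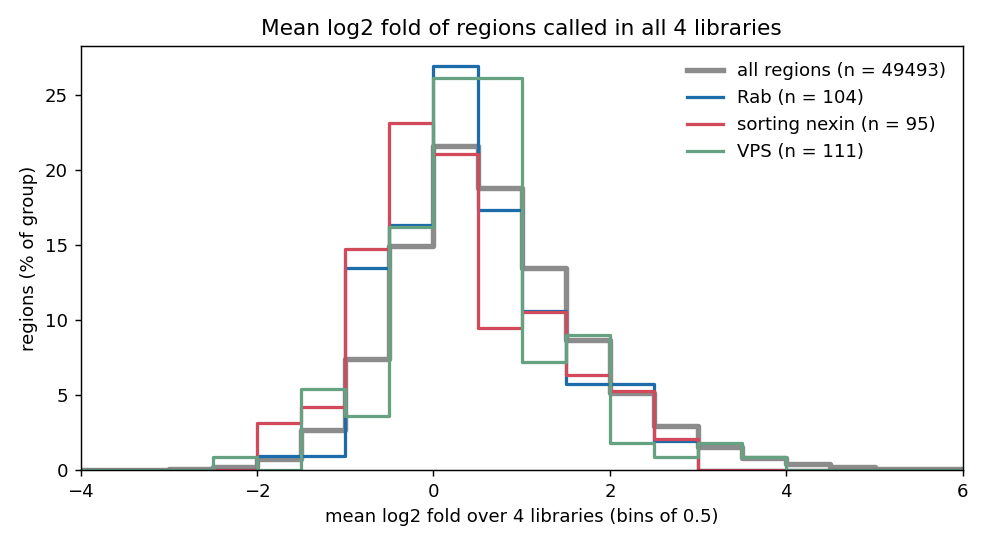
Distribution of the mean log2 fold over 4 libraries (horizontal axis, bins of 0.5, drawn from −4 to 6) as a percentage of the regions of each group (vertical axis). The grey line is all 49493 tested regions, and the coloured lines are the 104 Rab, 95 sorting nexin and 111 VPS regions. Among the member regions 3 reach a mean of 3, all of them VPS regions.

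VPS53, a subunit shared by the GARP and EARP complexes that tether vesicles at the Golgi and at recycling endosomes, held the most enriched RNA among the members. The region at chr17:619231-619604 on the minus strand had log2 folds of 4.52, 3.76, 3.59 and 3.81 in replicates 1 to 4. Replicate 1 was the highest, and all 4 libraries were over the threshold. Its −log10 p was 5.53, 6.07, 5.25 and 3.01 in the same order. The mean was 3.92 ± 0.41 (SD, n = 4; limma, adjusted p = 0.00411). Scored by the mean of its peaks, the region was at 3.16 (limma, adjusted p = 0.0147). The region lies 95421 nt from the start of the 206172-nt VPS53 span, near its middle. Inside it, the stretch chr17:619431-619604 was the 1 member region enriched in all 4 libraries, and the stretch next to it at chr17:619250-619340 was enriched in replicate 3 alone. Its log2 folds were 3.70, 3.59, 4.09 and −1.0, so 3 libraries were high and replicate 4 was not.

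The neighbourhood of that region was also higher in the IP. At chr17:619907-620055 the log2 folds were 2.81, 3.0, 3.32 and 3.32 (mean 3.11 ± 0.25; limma, adjusted p = 0.00435). Its −log10 p stayed between 1.15 and 2.20, so it was not counted as enriched. At chr17:617101-617223 they were 2.81, 3.17, 2.00 and 2.00 (mean 2.49 ± 0.59; limma, adjusted p = 0.00839). Between 94000 and 98000 nt from the start of the gene, a window chosen after its values were seen, 3 of 4 tested regions were above 0 and 15 of 16 library values were positive. In the whole of VPS53, 17 regions were tested, 6 above 0 and 1 below. The strand of VPS53 was not listed in the reference used and was taken from the peaks, all 350 of which were on the minus strand. The same holds for VPS28 (32 of 32 peaks). With such genes left out, 0 member regions were enriched in all 4 libraries.

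The other retromer and GARP genes had smaller values. Over this group 38 regions were tested, 8 (21.1%) above 0 and 1 below, with VPS53 giving 6 of the 8. VPS35L, which scaffolds the retriever complex, had a region at a mean of 2.56 ± 0.65 (limma, adjusted p = 0.00882), and VPS26A, an arrestin-like retromer subunit, one at 0.90 ± 0.21 (limma, adjusted p = 0.0498). The core retromer subunit VPS35 had 4 tested regions, the highest at 1.55 ± 0.89, which missed the threshold (limma, adjusted p = 0.0508). Retromer subunit VPS29 had 3 tested regions between −1.04 and 0.35, none of which passed.

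VPS28, an ESCRT-I subunit, held the region enriched in 3 libraries. At chr8:144424280-144424676 on the minus strand the log2 folds were 3.64, 4.36, 3.06 and 2.87 in replicates 1 to 4, with −log10 p of 5.25, 9.96, 4.82 and 3.81. Replicate 4 fell short of the fold limit only. The mean was 3.48 ± 0.67 (SD, n = 4; limma, adjusted p = 0.00548), and the centre of the region lies 861 nt from the 3′ end of the VPS28 span. Scored by the mean of its peaks, the region was at 2.94 (limma, adjusted p = 0.00541). Without replicate 4 it counts as a second member region enriched in every library. A nearby VPS28 region at chr8:144425213-144425282 was also above 0, at 0.90 ± 0.13 (limma, adjusted p = 0.0454). Of 22 tested ESCRT regions 3 (13.6%) were above 0 and 0 below. The third was in VPS36, an ESCRT-II subunit that binds ubiquitin, at 1.74 ± 0.97 (limma, adjusted p = 0.0446). VPS4A and VPS4B, the ATPases that take ESCRT-III apart, had 5 tested regions between −1.12 and 0.40, and none passed.

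HOPS and CORVET genes were grouped with Sec1/Munc18 (SM) proteins, among them VPS45, which gave 6 of the tested regions. The group had 17 tested regions in 4 genes, 1 of them (5.88%) above 0. It lies in VPS41, a HOPS subunit, at chr7:38739192-38739316 on the minus strand, with log2 folds of 1.00, 2.32, 1.00 and 1.00 (mean 1.33 ± 0.66; limma, adjusted p = 0.0457). Replicate 2 stood apart from the other libraries, which sat at the same value. With the variance fitted as a trend on the −log10 p, the call was lost (limma, adjusted p = 0.0616).

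VPS13A, a lipid transfer protein at membrane contact sites, is a long gene that drew 382 called peaks with 0 enriched. Of its regions 20 were tested, 5 above 0 and 2 below, and all 7 calls in the VPS13 and other VPS group, with 34 regions, were in VPS13A. The highest, at chr9:77211960-77212142 on the plus strand, had log2 folds of 2.00, 1.74, 2.00 and 1.81 (mean 1.89 ± 0.13; limma, adjusted p = 0.00760). The 4 libraries lay close together there. The 5 regions above 0 had means between 1.1 and 1.89. They fell in 3 places along the gene, and the first pair, at 1.56 and 1.89, lay side by side. VPS13B, a paralog that works at the Golgi, had 9 tested regions between −0.73 and 1.40, and none passed. VPS72, which carries a VPS name and works in chromatin remodelling complexes, had 14 called peaks and no region called in all 4 libraries.

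Among the Rab genes, RAB35 had the highest region. RAB35 acts in fast recycling from endosomes to the plasma membrane. At chr12:120095196-120095330 on the minus strand the log2 folds were 2.81, 3.39, 2.32 and 2.91 (mean 2.86 ± 0.44; limma, adjusted p = 0.00548), and replicate 2 alone was over the enrichment limit. The region lies 164 nt from the 3′ end of the gene span. The 3 regions in the last 600 nt of RAB35, a window chosen after its values were seen, were all above 0, with a median of 2.49. Among their library values 12 of 12 were positive, as were all values of the 51 member regions above 0. A further RAB35 region above 0 lay 4624 nt from the 3′ end, at 1.81 ± 0.77 (limma, adjusted p = 0.0256).

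RAB11A, which directs recycling endosomes, had a region at chr15:65889048-65889293 on the plus strand with a mean of 2.51 ± 0.67 (limma, adjusted p = 0.00954), enriched in replicate 2 alone. RAB5A, the Rab of early endosomes, had 4 tested regions, 1 of them below 0 at −1.25 ± 0.50 (limma, adjusted p = 0.0369). The lowest Rab region was in RAB14, a Rab of endosome and Golgi traffic, at chr9:121201622-121201803 on the minus strand. Its log2 folds were −2.59, −2.0, −0.58 and −1.59 (mean −1.69 ± 0.84; limma, adjusted p = 0.0361). All 4 libraries were negative, and the region lies 156 nt from the start of RAB14, where the span of GSN overlaps on the opposite strand. In this early endosome and recycling group 5 of 28 regions (17.9%) were above 0 and 2 (7.14%) below.

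Rab genes of the ER and Golgi gave no call. In 6 genes 18 regions were tested, and 0 were above 0 and 0 below in limma, against 21.1% and 1.81% of all regions. Their median was 0.20. RAB6A, a Rab of the Golgi, had the highest of them, at chr11:73718482-73718593 on the minus strand. Its log2 folds were 0.00, 1.32, 2.32 and 1.32, so replicate 1 showed none (mean 1.24 ± 0.95; limma, adjusted p = 0.104). RAB1A and RAB1B, which act between ER and Golgi, had 8 tested regions between −0.93 and 0.83.

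Rab genes of late endosomes and lysosomes had 19 tested regions with 3 (15.8%) above 0. RAB24, a Rab linked to autophagy, had the highest, at chr5:177302274-177302418 on the minus strand, with log2 folds of 1.58, 2.46, 1.17 and 2.32 (mean 1.88 ± 0.61; limma, adjusted p = 0.0172). RAB7A, the main Rab of late endosomes, had 12 tested regions, and 1 was above 0 at 1.62 ± 0.88 (limma, adjusted p = 0.0440). RAB12 had 1 tested region, above 0 at 1.38 ± 0.67 (limma, adjusted p = 0.0427).

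Among Rab genes of secretion and the cilium, 4 of 23 regions (17.4%) were above 0, 2 in RAB28 and 2 in RAB10. In RAB28, whose loss causes a retinal disease, the region at chr4:13383979-13384244 on the minus strand had log2 folds of 2.00, 3.32, 1.81 and 2.58 (mean 2.43 ± 0.68; limma, adjusted p = 0.0104). Replicate 2 was the highest, and its −log10 p of 2.20 kept it from being counted as enriched. The mean over all peaks of that region was 1.79. RAB10, which carries glucose transporter vesicles to the surface, had its pair side by side near the 3′ end of the gene, 1680 and 1392 nt from it, at 2.23 ± 0.30 and 1.76 ± 0.99 (limma, adjusted p = 0.00651 and 0.0442). The second of these, at chr2:26135958-26136166 on the plus strand, had log2 folds of 1.91, 3.09, 1.20 and 0.85 and was enriched in replicate 2 alone. RAB8A, a close relative that acts in exocytosis and at the cilium, had 3 tested regions between −1.0 and 0.00, and none passed.

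The remaining Rab genes with tested regions were RAB40B and RAB40C, which carry a SOCS box and work with ubiquitin ligases. They had 16 tested regions, 4 (25%) above 0 and 0 below. In RAB40B the region at chr17:82671192-82671461 on the minus strand had log2 folds of 2.32, 2.12, 2.00 and 3.0 (mean 2.36 ± 0.45; limma, adjusted p = 0.00735). All 4 libraries were at 2 or higher, while the −log10 p did not exceed 1.90 in any of them. RAB40C had 1 region above 0, at chr16:592222-592559, with a mean of 2.35 ± 0.17 (limma, adjusted p = 0.00554). Its midpoint also lies in the span of the pseudogene LOC102723945.

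SNX27 had 8 of 13 tested regions above 0, the most of any member. The 7 regions whose centres lie in its first 1300 nt were all above 0. They cover chr1:151612150-151613389, a stretch of 1240 nt that was chosen after its values were seen. Their means ran from 0.99 to 2.68 with a median of 2.08. Among their library values 28 of 28 were positive, as were all values of the 51 member regions above 0. One called peak of the 34 in that stretch, in replicate 2, had a negative fold and belonged to no region called in all 4 libraries. In the rest of the gene 1 of 6 regions was above 0. The highest region, at chr1:151613171-151613389 on the plus strand, had log2 folds of 2.19, 3.27, 2.66 and 2.58 (mean 2.68 ± 0.45; limma, adjusted p = 0.00605), with −log10 p of 4.93, 5.86, 5.53 and 5.11. Every library was past the p limit there, and replicate 2 alone was past the fold limit. Nearer the start, the region at chr1:151612150-151612242 had 1.81, 1.59, 3.91 and 2.58 and was enriched in replicate 3 alone, while that at chr1:151612392-151612530 had 3.32, 2.59, 1.38 and 1.87 and was enriched in replicate 1 alone. The long noncoding RNA LOC124904420 spans the same stretch and is listed on the opposite strand.

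**Figure D3:**
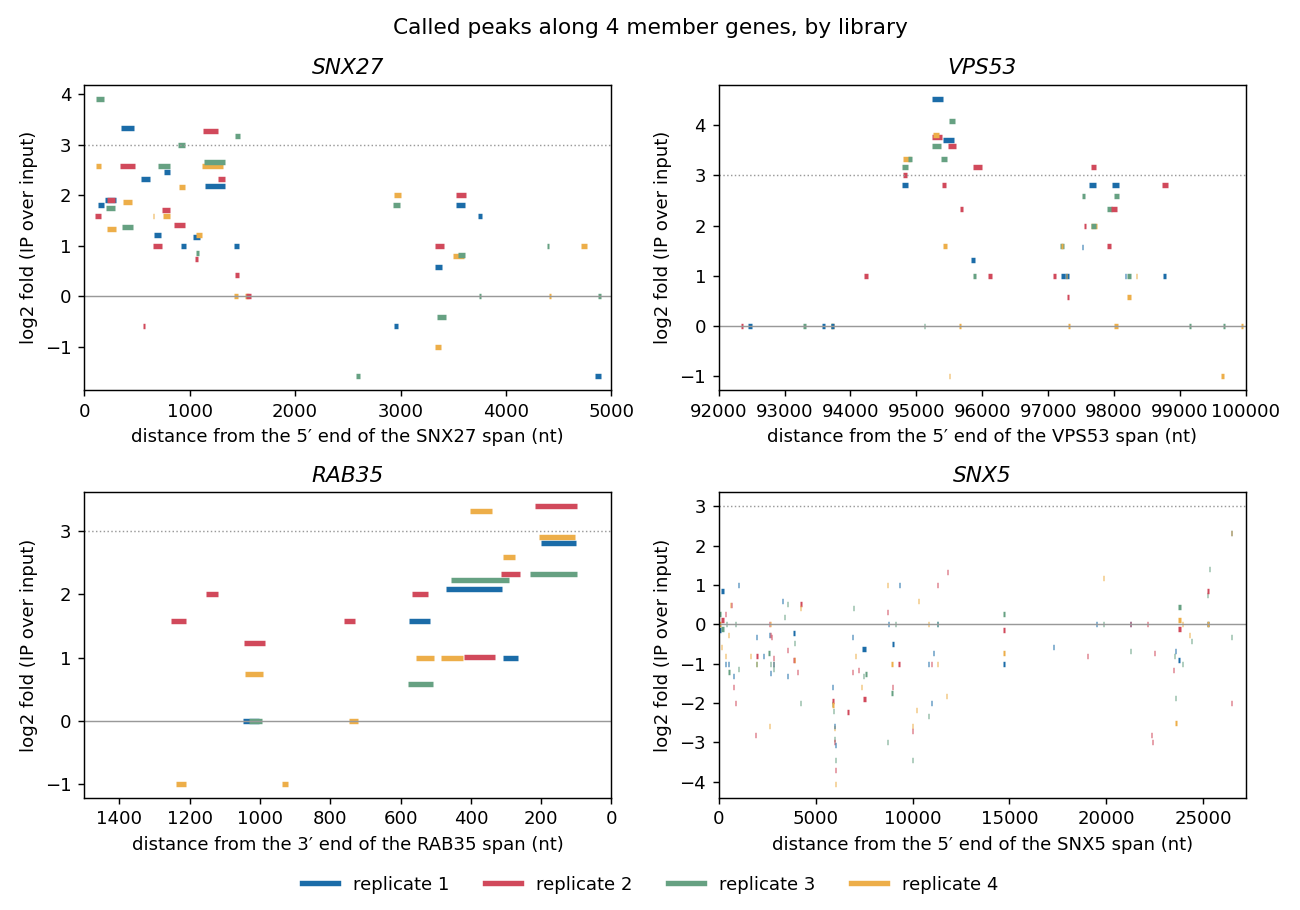
Called peaks of 4 libraries as horizontal bars along the start of SNX27, the middle of VPS53, the end of RAB35 and the whole of SNX5. The horizontal axis is the distance in nt from the named end of the gene span and the vertical axis the log2 fold of IP over input; the dotted line marks the fold limit of 3. Peaks of all 4 colours lie mostly above 0 in the first 1300 nt of SNX27 and in the last 600 nt of RAB35, and most SNX5 peaks lie at or below 0.

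The other sorting nexins with a FERM or RGS domain added 1 region above 0, in SNX13, at 1.29 ± 0.62 (limma, adjusted p = 0.0455). This group thus had 9 of 21 regions (42.9%) above 0 and a median of 1.15, with SNX27 giving 8 of the 9 and 13 of the 21. SNX17, a FERM-domain nexin that recycles integrins and LDL receptor relatives with retriever, had a region at 1.73 ± 1.1 that missed the threshold (limma, adjusted p = 0.0588).

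Among the sorting nexins with none of the FERM, RGS and BAR domains, 5 of 17 regions (29.4%) were above 0. SNX12, a short nexin close to SNX3, had 2 tested regions and both were above 0. The higher, at chrX:71060363-71060587 on the minus strand, had log2 folds of 2.11, 2.12, 2.91 and 3.17 (mean 2.58 ± 0.54; limma, adjusted p = 0.00727), with replicate 4 alone enriched. The mean over all peaks of that region was 1.67. The pair lay 1228 and 1462 nt from the 3′ end of the gene. SNX29 drew the most called peaks of any member, 475 over a span of 597554 nt, with 0 enriched. It had 11 tested regions, 3 above 0, the highest at 2.33 ± 0.66 (limma, adjusted p = 0.0109).

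Sorting nexins with a BAR domain, which bend endosomal membrane into tubules, had more regions below 0 than above. Of 57 tested regions 4 (7.02%) were above 0 and 5 (8.77%) below, and the median was −0.42. SNX9, which acts with dynamin in endocytosis, had 286 called peaks with 0 enriched and 7 tested regions, 1 above 0. That region, at chr6:157825472-157825650 on the plus strand, had log2 folds of 2.32, 2.00, 3.0 and 1.00 (mean 2.08 ± 0.83; limma, adjusted p = 0.0206). SNX8 had 2 of 3 regions above 0, at 1.99 ± 0.76 and 1.15 ± 0.29 (limma, adjusted p = 0.0197 and 0.0297).

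SNX5, a partner of retromer in retrieval to the Golgi, accounted for 4 of the 5 regions below 0 in that group. It had 23 tested regions, 0 above 0 and 4 below, with a median of −0.63, and 20 of 92 library values were positive. The lowest region that passed, at chr20:17962735-17962947 on the minus strand, had log2 folds of −1.60, −1.35, −2.01 and −2.05 (mean −1.75 ± 0.34; limma, adjusted p = 0.0114). Its midpoint lies in SNORD17, a small nucleolar RNA (snoRNA) in the SNX5 span at chr20:17962710-17962946. In all, 16 SNX5 peaks had their midpoint in SNORD17, with 5, 4, 4 and 3 in replicates 1 to 4, and the folds of all 16 were negative. All of them have a −log10 p of 0, so the region was scored by the mildest peak of each library, and the lowest peaks were at −3.07, −3.71, −3.45 and −4.06. Scored by the mean of its peaks, the region was at −2.63 ± 0.21 (limma, adjusted p = 0.00545). The other 3 regions below 0 lay outside it. In the remaining members 6 of 287 regions (2.09%) were below 0.

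VPS53, the gene with the highest region, also held one of the lowest. At chr17:657452-657530 on the minus strand its log2 folds were −2.32, −3.00, −1.81 and −2.81 (mean −2.48 ± 0.53; limma, adjusted p = 0.00780). It was the lowest member region that passed by the main scoring and came after the SNORD17 region when regions were scored by the mean of their peaks. Its midpoint also lies in the span of RPS4XP17, a pseudogene of a ribosomal protein, and reads of such copies may be placed at more than 1 site. Of the 10 member regions below 0, 4 had their midpoint in the span of another annotated gene, as did 9 of the 51 above 0, and the part of that overlap in the values was not tested.

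**Figure D4:**
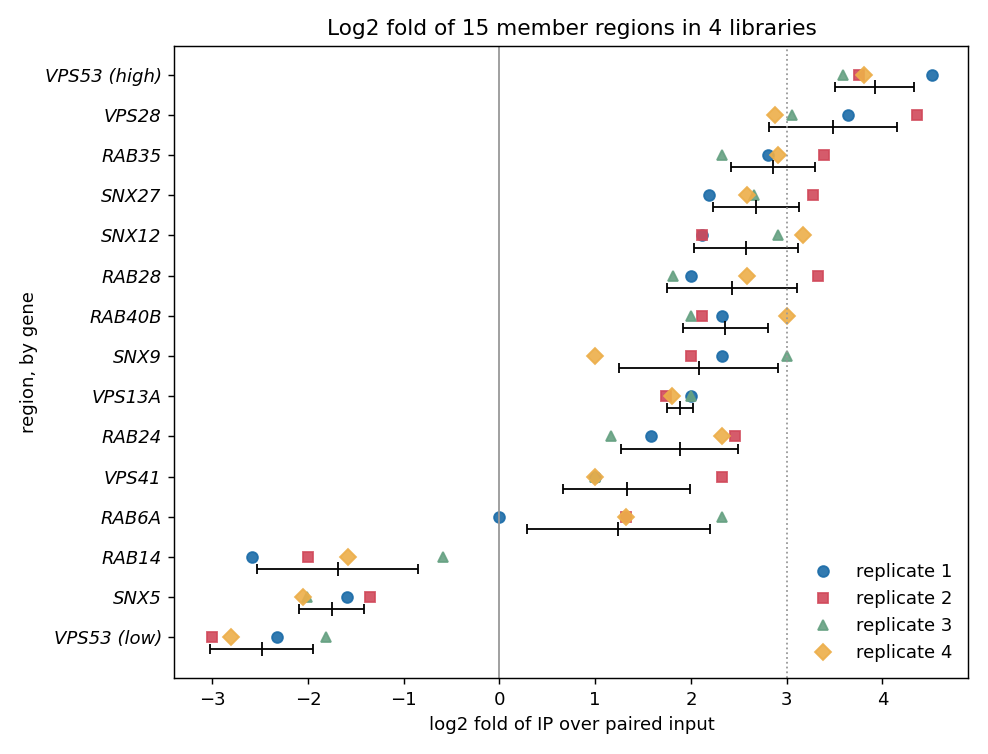
Log2 fold of IP over paired input (horizontal axis) in 15 member regions, 1 row each. Coloured points are the 4 libraries, the black bar below them is the mean ± SD, and the dotted line marks the fold limit of 3. In the VPS53 region at the top all 4 libraries lie past 3, and in the 3 rows at the bottom all 4 lie below 0.

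By position, called peaks lay a little more often at the ends of member genes than of other genes. The first 1000 nt of the span held 6.27% ± 0.674 of member peaks and 5.45% ± 0.187 of peaks in other genes, and the last 1000 nt held 3.95% ± 0.220 and 3.25% ± 0.0591 (SD, n = 4). Both shares were higher in the members in 4 of 4 libraries (exact sign-flip permutation, p = 0.125 each, the smallest possible). Of the 51 regions above 0, 14 (27.5%) lay in the last 3000 nt of their gene, against 52 (16.8%) of the 310 tested. They include those of RAB10, RAB11A, RAB35, SNX12 and VPS28 described above. The short span of RAB24, 2522 nt, lies in that window whole. In the first 1000 nt lay 7 of the 51 (13.7%) and 41 of the 310 (13.2%). These shares were not taken over all regions of the series, so a tilt particular to the members cannot be read from them.

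Genes that act on or with these families were looked at by the same measures, from lists of 50 activators and inactivators of Rab proteins, 39 Rab effectors and 54 partners of retromer, WASH, ESCRT and tethering complexes, none of them members. Enriched peaks were 0.322% of the 8698 called peaks of the activators and inactivators, 1.82% of the 4175 of the effectors and 0.252% of the 4364 of the partners. Over all called peaks the share was 0.818%. Of the tested regions, 49 of 248, 40 of 166 and 17 of 155 were above 0 and 3, 2 and 1 below, with medians of 0.58, 0.83 and 0.35. The enriched effector peaks fell in 3 genes. BICD2, the RAB6 effector that links vesicles to dynein, held 3 regions enriched in all 4 libraries, the highest at log2 folds of 4.47, 4.49, 6.21 and 4.91 (mean 5.02 ± 0.82, SD, n = 4). MICAL3, a RAB8 effector, held 2, the higher at 4.46 ± 0.70. Among the partners, the ESCRT adaptor PDCD6IP held 1 at 4.25 ± 0.40. The lowest of these 6 regions was at 3.95 ± 0.54, beside 3.92 ± 0.41 in VPS53.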

How the data were processed

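RBFOX2 eCLIP was measured in 4 IP libraries and 4 inputs. The submitters' processing notes name UMI-tools 1.1.1, cutadapt 3.2, STAR 2.7.7a and the builds hg38 and GRCh38.p13; the peak caller and scaling are not given in the sources used here. The deposited lists have no header, so units were read from the values: the authors' −log10 p (never negative, up to 400, and 0 wherever the fold is negative) and the authors' log2 fold of IP over input, which moves in steps. Per-library depth is unknown.

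Gene spans came from RefSeq (GRCh38.p14). Strand came from its start windows for 98 members and, for 16, from at least 80% of at least 10 called peaks lying in that span alone, a rule that gave the listed strand for 8144 of 8186 genes (99.5%). No genome or exon annotation was used, so motifs in regions and exon classes were not examined. Coordinates are 1-based.

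Shares were compared by exact two-sided sign-flip permutation over libraries, and regions with limma 3.58.1 in R 4.3.3 (intercept-only, eBayes without trend). The limma step was also run on simulated normal values with the spread of the real regions. Such values do not move in steps and are not picked among peaks, so that run cannot vouch for the test on the real folds. Other steps ran in Python 3.11.15 with pandas 2.3.3, numpy 2.4.6 and scipy 1.17.1. Named regions were the member region enriched in all 4 libraries, the highest of each role group, the 3 lowest below 0, those enriched in 3 libraries, and the 3 genes with most called peaks and none enriched; other named genes were chosen after their values were seen. The members, lists and tests were chosen with earlier results of these data known. Alternatives covered thresholds, overlap, the region value, strand, single genes and single libraries.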

Additional observations from a re-analysis of the deposited data

Results flagged for a closer look

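Of 19 sets of 4 library values that were checked for a value far from the rest, 2 stood out. In both, the other libraries sat at the same or nearly the same value. The rate of about 5% of sets by chance need not hold for such ties, so the 2 were not set against it. The share of called Rab peaks that were enriched was 0.489% in replicate 2 and 0 in replicates 1, 3 and 4, so the 3 enriched Rab peaks, in RAB10, RAB11A and RAB35, all came from that library. The VPS41 region at chr7:38739192-38739316 had a log2 fold of 2.32 in replicate 2 and 1.00 in each of the other libraries. A role of replicate 2 in these values was not tested.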

How the results depend on the processing

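The member share of enriched peaks stayed below that of other genes under every alternative tried, with differences from −0.392 percentage points (−log10 p of at least 5) to −0.818 (log2 fold of at least 1) and from −0.685 to −0.637 with 1 library left out; without VPS53 it was −0.714. The counts moved more. At a −log10 p of at least 5 there were 1.5 enriched member peaks per library and 0 regions in 0 genes enriched in all 4 libraries. At a log2 fold of at least 1 there were 6.25 peaks and 3 regions in 3 genes. With genes whose strand came from the peaks left out, a choice made after seeing the data, there were 1.75 peaks and 0 regions in 0 genes. With 1 library left out, there were between 3.0 and 4.33 peaks per library and between 1 and 2 regions, in as many genes, the second being VPS28 without replicate 4.

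The 51 regions above 0 and 10 below became 12 and 1 when limma tested against a log2 fold of 1. These were 3.87% and 0.323% of the 310 member regions, against 5.60% and 0.188% of all regions. The counts became 11 and 0 when the 11 member regions past the limit on p in some library were the only ones tested. Negative folds cannot pass that limit, and 3339 of 3356 regions of the whole series (99.5%) were above 0 under it. With the lowest fold among peaks tied on p they were 49 and 11 (15.8% and 3.55%, against 20.3% and 1.88% of all regions). With the mean of the peaks they were 49 and 10 (15.8% and 3.23%, against 19.0% and 1.81%). Both scorings were chosen after seeing the data, and the SNX5 region at SNORD17 was at −3.57 and −2.63 there. With 1 library left out the counts ranged from 0 to 8 above and from 0 to 4 below. As shares these were 0 to 1.91% and 0 to 0.995% in the members, against 0 to 3.93% and 0 to 0.239% of all regions. Of 116 alternative values of the 14 named regions with a call, 70 kept the call, 46 lost it and 0 changed direction. With 1 library left out, 14, 8, 9 and 14 lost it, for replicates 1 to 4 in turn. With the variance as a trend on the −log10 p, 1 lost it. The other settings scored the same 4 libraries again. RAB6A had no call under any of its 8, and RAB14 gave no region without replicate 2. No paired analysis was possible because every fold is itself the paired difference of an IP and its own input, which all tests here use, so that no block by replicate number was left to fit. The motif and exon alternatives were not run, since no genome was used. Unknown read depth and values that move in steps limit all low folds.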
